A study of Homo sapiens with 6 samples.

Results

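The kinesins are the microtubule motor proteins whose genes were read here in ARPE-19 cells treated with cinobufagin. A gene counted as a member where its Entrez ID paired with a RefSeq symbol of KIF, a number and at most 1 letter, or with KIFC1, KIFC2, KIFC3 or KIFAP3. This found 42 of the 17945 genes in the deposited table. Another 2 symbols that fit the rule, KIF2B and KIF28P, had no entry in the values used here. Of the 42 genes, 12 are listed as mitotic by their known roles and 30 are the others. The others include KIF2A, which also acts at spindle poles, and KIF4B, a near copy of the mitotic KIF4A. ARPE-19 is a human retinal pigment epithelial cell line, labelled wild type. It received cinobufagin at 320 nM or DMSO, the solvent control, for 24 h, with 3 libraries in each group. Cinobufagin is a bufadienolide, a toad venom steroid that inhibits the sodium pump. All 6 libraries come from this 1 line, and nothing in the labels tells if separate cultures were used within a group, so the p-values reflect the scatter of these 6 samples alone, and that scatter may be technical.

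Kinesins use ATP to walk along microtubules or to take them apart from the ends. Some carry vesicles, organelles and ciliary cargo through the cell between divisions. Others work mainly in mitosis, where they build the spindle, move and align chromosomes and bring about the final separation of daughter cells, and many of their genes are transcribed chiefly in the G2 and M phases. Retinal pigment epithelium in the eye hardly divides, whereas ARPE-19 cells in culture do.

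Levels were deposited as FPKM, which corrects fragment numbers for transcript length and library total, so levels can be set side by side between genes. Sums over all genes were 534694 to 560721 per library. The depth in reads is unknown. Genes at 1 FPKM or more in at least 3 libraries were tested, 11599 in all, with limma on log2 of FPKM + 1. Of these 28.4% fell and 39.2% rose (adjusted p under 0.05), together 67.7%, with a median log2 fold change of 0.06. Of 15 markers listed for pigment epithelium, OTX2 and MITF were at 48.5 and 45.1 FPKM in DMSO and the filament genes KRT8, KRT18 and VIM were abundant. CDH2 was at 95.5, TYRP1 at 10, SERPINF1 at 5.15, PMEL at 2.04, BEST1 at 1.21 and TYR at 1.03 FPKM on average in DMSO. RPE65, RLBP1, TTR and CDH1 were at or near 0 FPKM in both groups, so these markers of the labelled tissue are absent or nearly so in these cells. Of 7 markers of other cell types 6 had an entry, and all were below 0.1 FPKM on average.

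Cinobufagin-treated cells had lower transcript levels of every mitotic kinesin, while the other kinesins went both ways. All 12 mitotic kinesins were tested and 12 fell, where 28.4% of all genes tested fell, and the fall reached 1 on the log2 scale in 8 of them, where 3.34% of all genes did. Their median log2 fold change was -1.22. Of the 30 other kinesins 21 were tested. Among these 9 rose, 8 fell and 4 passed in neither direction, where 39.2% of all genes tested rose and 28.4% fell, with a median log2 fold change of 0.01. KIF14, in both mitotic counts, and KIF24, among the other falls, passed the filter only through DMSO libraries, so that they had to differ. A gene list chosen with results of these data known is no independent evidence of its direction, and the counts and medians are given as a description. Fewer cells in mitosis and less of these RNAs per cell cannot be told apart in bulk RNA.

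Summed over the 12 genes, mitotic kinesin transcripts were at 134, 141 and 142 FPKM in the DMSO libraries and at 51.95, 52.2 and 53.8 FPKM in the cinobufagin libraries. The other 30 genes summed to 282, 292 and 291 FPKM in DMSO and to 289, 291 and 294 FPKM in cinobufagin libraries. The mitotic sums of the groups lay far apart and the other sums overlapped. Mitotic genes thus made up 32.2% to 32.7% of all kinesin FPKM in DMSO libraries, but 15.2% to 15.4% after cinobufagin.

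**Figure D1:**
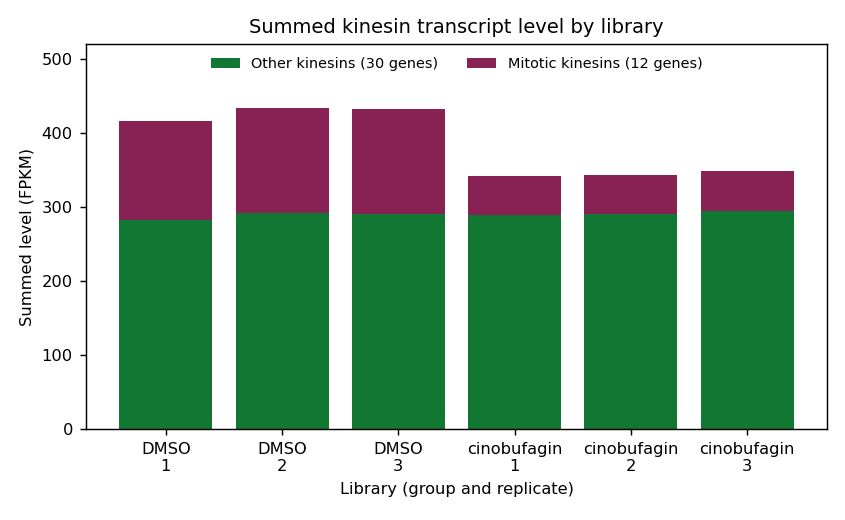
Summed transcript level (FPKM) of the 12 mitotic and the 30 other kinesin genes as stacked bars, 1 bar per library. The mitotic share is 32.2% to 32.7% in the 3 DMSO libraries and 15.2% to 15.4% in the 3 cinobufagin libraries, while the sum over the other genes stays between 282 and 294 FPKM.

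Proliferation markers moved with the mitotic kinesins. All 5 of 5 such genes (MKI67, TOP2A, CCNA2, MCM2 and PCNA) fell, where 28.4% of all genes tested did, and their summed level was 219 to 232 FPKM in DMSO libraries, as against 110 to 117 FPKM after cinobufagin. Their part in the kinesin result was not tested.

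Promoter sequence was read for the kinesin genes because the mitotic members moved together. RefSeq windows on GRCh38.p14, from 250 bases before to 50 after an annotated start, matched 34 of the 42 genes. The motif TTTGAA is the core of the cell cycle genes homology region, which the DREAM and MuvB complexes bind, and CCAAT is the box bound by NF-Y. Both were searched on both strands, and their letters cannot overlap except at single end bases. TTTGAA was in the window of 9 of 12 mitotic kinesins (75%) and 2 of 22 other kinesins with a window (9.09%), and in 18.2% of 27305 genes with a window and 13.6% of the 9644 tested genes that have one. CCAAT was in 10 of 12 mitotic and 8 of 22 other kinesins, and in 39.7% of all genes and 43.6% of tested genes. A window held both in 8 of the mitotic genes and 2 of the others, KIF5B and KIF4B, against 7.26% of all genes and 5.58% of tested genes. The variant TTCGAA was found in the mitotic KIF22 and in KIF24, a gene of the other group that also fell, and in 1.82% of all genes and 2.36% of tested genes. The E2F-type letters GCGGGAA were in 0 of 12 mitotic and 3 of 22 other kinesins (7.82% of all genes and 13.1% of tested genes), and GCGCGAA in 0 of 12 and 0 of 22 (2.75% and 5.09%). A match is a description of these letters and shows no binding. The letters are the same with and without cinobufagin, and any relation of these shares to the response was not tested.

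The windows below run from 100 bases before to 40 after the start, 5′ to 3′ on the strand of the gene, with TTTGAA and CCAAT on either strand in capitals, so that TTCAAA and ATTGG are the same motifs on the opposite strand. They are shown for 5 mitotic genes with large falls, for KIF18A, the mitotic gene with the smallest, and for KIF3B, which rose. KIF20A lies at chr5:138179012-138179151 (plus strand), KIF23 at chr15:69414249-69414388 (plus), KIF18B at chr17:44947734-44947873 (minus), KIF4A at chrX:70290004-70290143 (plus), KIFC1 at chr6:33391723-33391862 (plus), KIF18A at chr11:28108117-28108256 (minus) and KIF3B at chr20:32277551-32277690 (plus).
KIF20A: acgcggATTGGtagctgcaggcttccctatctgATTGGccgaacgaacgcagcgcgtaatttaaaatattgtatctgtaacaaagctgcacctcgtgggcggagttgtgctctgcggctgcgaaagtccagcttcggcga
KIF23: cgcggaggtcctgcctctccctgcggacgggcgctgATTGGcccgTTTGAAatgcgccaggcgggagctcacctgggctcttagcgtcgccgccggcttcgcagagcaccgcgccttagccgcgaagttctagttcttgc
KIF18B: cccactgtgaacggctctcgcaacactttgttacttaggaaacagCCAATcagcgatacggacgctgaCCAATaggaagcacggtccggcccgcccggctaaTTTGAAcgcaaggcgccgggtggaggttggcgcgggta
KIF4A: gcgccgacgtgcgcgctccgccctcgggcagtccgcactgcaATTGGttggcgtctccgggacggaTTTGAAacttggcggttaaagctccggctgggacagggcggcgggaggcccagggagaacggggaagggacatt
KIFC1: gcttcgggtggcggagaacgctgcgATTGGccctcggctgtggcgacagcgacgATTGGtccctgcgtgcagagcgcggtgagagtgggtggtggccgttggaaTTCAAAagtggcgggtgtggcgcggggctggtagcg
KIF18A: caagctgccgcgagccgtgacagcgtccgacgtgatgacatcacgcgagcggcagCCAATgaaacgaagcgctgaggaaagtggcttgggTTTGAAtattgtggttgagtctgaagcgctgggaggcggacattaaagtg
KIF3B: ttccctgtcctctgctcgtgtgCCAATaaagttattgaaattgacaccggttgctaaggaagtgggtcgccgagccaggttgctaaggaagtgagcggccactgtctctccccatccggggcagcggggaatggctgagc

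Of the 6 mitotic windows shown, 5 hold both motifs, with CCAAT before TTTGAA in each. KIF20A, which had the largest fall, holds CCAAT in 2 places and no TTTGAA, and KIF18A, with the smallest, holds both. Any relation of these letters to the size of the fall was not tested, and no variant of TTTGAA other than TTCGAA was searched. KIF2C, the gene with the 2nd largest fall on the scale of log2(FPKM + 1), had neither motif within its window, which is not shown.

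Kinesins of cytokinesis ranged from the largest fall in the family, of KIF20A, to one of the smaller mitotic falls, of KIF20B. KIF20A (gene ID 10112, GRCh38 chromosome 5, 138178719 to 138187715), which brings the chromosomal passenger complex to the central spindle, was at 18.86, 18.02 and 17.62 FPKM in DMSO and at 3.41, 2.88 and 3.27 FPKM in cinobufagin libraries. The groups lay far apart, with a log2 change of -2.20 (SE 0.07; adjusted p = 3.21e-10 by limma), the 18th lowest value of the 11599 genes tested. KIF23 (chromosome 15, 69414246 to 69448427), the motor of the centralspindlin complex that bundles midzone microtubules, was at 16.7, 18.21 and 18.61 FPKM in DMSO and at 6.43, 5.73 and 5.92 FPKM in cinobufagin libraries (log2 change -1.42 with SE 0.06, adjusted p = 5.79e-09 by limma). KIF14, which recruits citron kinase to the midbody, was lower throughout, at 2.38, 2.92 and 2.90 FPKM in DMSO and 0.56, 0.71 and 0.70 FPKM in cinobufagin libraries. Its log2 fold change of -1.17 is of FPKM + 1 and understates a 4.16-fold difference between mean FPKM values, and it passed the filter only through the DMSO libraries, so that it had to differ. KIF20B, a further kinesin of late cytokinesis, was at 5.27, 7.30 and 7.31 FPKM in DMSO, with DMSO replicate 1 the lowest, and at 3.34, 3.61 and 3.24 FPKM in cinobufagin libraries, below every DMSO library (log2 change -0.78 with SE 0.10, adjusted p = 3.79e-05 by limma).

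Kinesins that act on chromosomes and on microtubule ends fell as well, with 1 exception in size. KIF2C (gene ID 11004, chromosome 1, 44739818 to 44767767), a depolymerase that corrects wrong attachments at centromeres, was at 14.18, 13.97 and 14.54 FPKM in DMSO and at 3.90, 3.11 and 3.53 FPKM in cinobufagin libraries, a 4.05-fold lower mean (log2 change -1.76 with SE 0.07, adjusted p = 2.81e-09 by limma). KIF18B, a motor that limits the length of astral microtubules, was at 6.24, 6.46 and 6.27 FPKM and at 1.43, 1.85 and 1.99 FPKM (log2 change -1.42 with SE 0.09). KIF4A, a chromokinesin that also stops microtubule growth at the midzone, was at 8.26, 8.49 and 7.07 FPKM in DMSO and at 2.54, 2.06 and 2.65 FPKM in cinobufagin libraries (log2 change -1.39 with SE 0.09). Its intronless copy KIF4B is nearly identical in sequence and was listed at 0.01 to 0.04 FPKM, so reads of the pair are hard to separate. KIF22, the chromokinesin that pushes chromosome arms from the poles, went from 18.5 ± 0.684 to 8.08 ± 0.637 FPKM (SD, n = 3 per group), a 2.29-fold fall.

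KIF18A (chromosome 11, 28020620 to 28108308), which damps chromosome movement at the metaphase plate, was the mitotic member with the smallest fall. It was at 8.98, 12.32 and 13.59 FPKM in DMSO and at 8.04, 9.05 and 8.52 FPKM in cinobufagin libraries. The groups overlap, because DMSO replicate 1 lies within the cinobufagin range. Its log2 change was -0.39 (SE 0.11; adjusted p = 0.0099 by limma), and without a filter on low values it missed the threshold (adjusted p = 0.0501 by limma; alternatives ran from 6.77e-05 to 0.0501). The ratio of KIF18B to KIF18A was 0.461 to 0.695 in DMSO and 0.178 to 0.234 in cinobufagin libraries, and that of KIF20A to KIF18A was 1.3 to 2.1 and 0.318 to 0.424.

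Each of those ratios separated the groups without overlap (exact permutation test over libraries, two-sided p = 0.10, 0.12 adjusted over 6 pairs of genes). With 3 libraries against 3 that p is the smallest the design allows. KIF20A and KIF18A are the ends of the mitotic range in these same data, so the separation of their ratio is a description and no independent result.

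Kinesins that separate and focus the spindle poles fell by intermediate amounts. KIF11 (gene ID 3832, chromosome 10, 92593286 to 92655395), the tetrameric motor that slides the poles apart, was at 12.29, 13.89 and 12.71 FPKM in DMSO and at 6.68, 6.82 and 6.42 FPKM in cinobufagin libraries (log2 change -0.87 with SE 0.06, adjusted p = 2.55e-07 by limma). KIF15, which can share in that sliding, was lower too, at 3.71 ± 0.288 and 1.38 ± 0.0625 FPKM (SD, n = 3 per group; log2 change -0.98). KIFC1, a minus-end motor that gathers poles and clusters extra centrosomes, was at 18.40, 17.80 and 18.79 FPKM in DMSO and at 6.82, 6.31 and 8.04 FPKM in cinobufagin libraries (log2 change -1.27 with SE 0.08, adjusted p = 5.23e-08 by limma). In 11 of the 12 mitotic genes every cinobufagin library was below every DMSO library, as in 29.6% of all genes tested, and KIF18A was the exception. Among the 21 other tested kinesins the cinobufagin libraries all lay below in 8 genes and all above in 9 (41.2% of all genes tested lay above and 70.8% were apart either way). KIF14 is among the 11 and KIF24 among the 8. Both passed the filter only through DMSO libraries, so that their groups had to be apart.

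**Figure D2:**
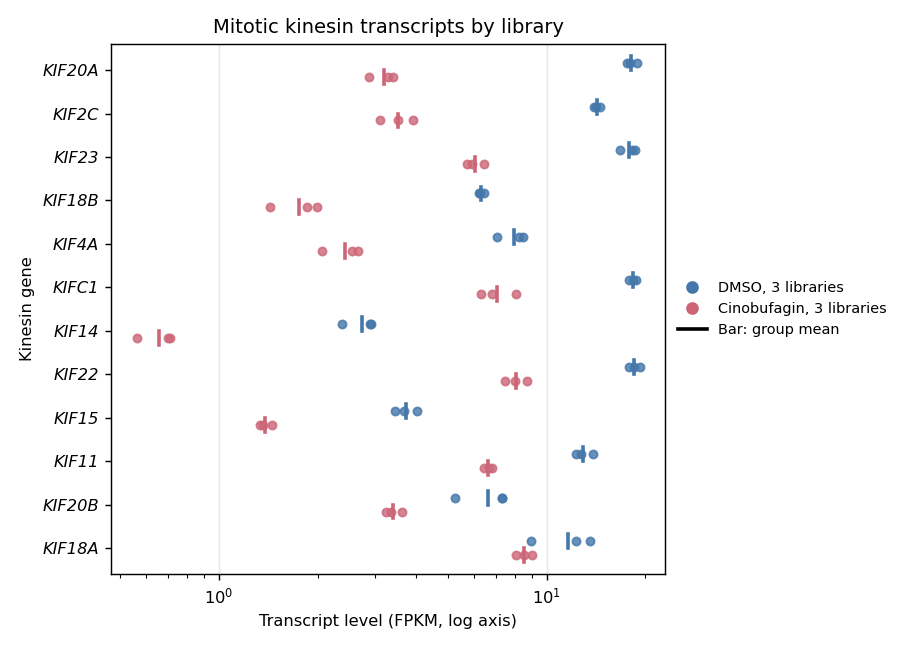
Transcript level (FPKM, log axis) of the 12 mitotic kinesin genes in each library, ordered by log2 fold change, with points for libraries and bars for group means. The groups are apart in 11 genes, from KIF20A at 18.2 and 3.19 FPKM on average to KIF20B at 6.63 and 3.40 FPKM, and overlap in KIF18A. KIF14, among the 11, passed the filter only through DMSO libraries, so that its groups had to be apart.

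The rule for members leaves out a pair of family genes with other names. CENPE, the kinesin that carries chromosomes to the metaphase plate, fell from 3.00 ± 0.957 to 1.04 ± 0.153 FPKM (SD, n = 3 each; log2 change -0.94 with SE 0.15, adjusted p = 0.000183 by limma). STARD9, a kinesin of the centrosome, was at 2.29 and 2.53 FPKM without passing the threshold (adjusted p = 0.289 by limma).

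Of the 4 tested kinesin-2 genes 3 rose, where 39.2% of all genes tested rose. KIF3A and KIF3B, with the adaptor KIFAP3, form the heterotrimer that drives transport to the tip of cilia and also carries vesicles. KIF3B (gene ID 9371, chromosome 20, 32277664 to 32335011) was at 19.02, 20.21 and 18.46 FPKM in DMSO and at 33.39, 31.52 and 32.97 FPKM in cinobufagin libraries, with no overlap (log2 change 0.73 with SE 0.05, adjusted p = 1.69e-07 by limma). KIF3A was at 5.31, 6.38 and 7.41 FPKM in DMSO and at 9.75, 10.61 and 10.96 FPKM in cinobufagin libraries (log2 change 0.64 with SE 0.09, adjusted p = 8.3e-05 by limma). KIFAP3 rose less, from 23.9 ± 0.861 to 27.8 ± 1.35 FPKM (SD, n = 3 per group; log2 change 0.21). KIF3C, which pairs with KIF3A in some cells, was at 13.2 ± 0.437 and 12.8 ± 0.252 FPKM and missed the threshold (log2 fold change -0.04, 95% confidence interval -0.16 to 0.08, adjusted p = 0.515 by limma). The ratio of KIF3B to KIF3A overlapped between the groups, at 2.49 to 3.58 in DMSO and 2.97 to 3.42 in cinobufagin libraries (exact permutation p = 0.90, two-sided). The ratio of KIF3B to KIF3C did not, at 1.38 to 1.59 and 2.44 to 2.67 (exact permutation p = 0.10, the smallest possible). The homodimeric KIF17 was below the filter, at 0.33, 0.24 and 0.40 FPKM in DMSO and 0.03, 0.02 and 0.03 FPKM in cinobufagin libraries, and was not tested.

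Of conventional kinesin, or kinesin-1, 1 of 2 tested heavy chains rose, where 39.2% of all genes tested rose. KIF5C (gene ID 3800, chromosome 2, 148875250 to 149026759), a heavy chain best known from neurons, had the largest rise in the family, from 6.88, 7.45 and 7.07 FPKM in DMSO to 13.14, 13 and 12.88 FPKM in cinobufagin libraries (log2 change 0.78 with SE 0.06, adjusted p = 2.52e-07 by limma). The ubiquitous heavy chain KIF5B was at 43.62, 53.69 and 50.60 FPKM in DMSO and at 46.25, 46.41 and 46.30 FPKM in cinobufagin libraries and did not pass (log2 fold change -0.08, 95% confidence interval -0.22 to 0.06, adjusted p = 0.271 by limma). It passed as lower without DMSO replicate 1, the lowest DMSO library (log2 fold change -0.17, adjusted p = 0.00564 by limma; alternatives ran from 0.00564 to 0.788). KIF5C made up 12.1% to 13.6% of the summed FPKM of the 3 KIF5 genes in DMSO and 21.7% to 22.0% in cinobufagin libraries, and KIF5A was at 0.22 to 0.30 FPKM. The ratio of KIF5C to KIF5B was 0.139 to 0.158 in DMSO libraries and 0.278 to 0.284 after cinobufagin (exact permutation p = 0.10, two-sided, the smallest possible; 0.12 adjusted over 6 pairs).

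Vesicle motors of the kinesin-3 group split. KIF1B (chromosome 1, 10210805 to 10381603), a carrier of mitochondria and synaptic vesicle precursors, rose from 13.90, 14.59 and 14.41 to 21.67, 21.49 and 23.32 FPKM (log2 change 0.60 with SE 0.05, adjusted p = 1.23e-06 by limma). KIF16B, an early endosome motor, rose by 0.27 on the log2 scale. KIF13B rose by 0.20, but missed the threshold without DMSO replicate 3 (adjusted p = 0.0713 by limma) and without cinobufagin replicate 3 (adjusted p = 0.0609 by limma; alternatives ran from 0.0105 to 0.0713). The abundant KIF13A, which moves recycling endosomes and is used in melanosome formation, fell instead, from 29.66, 29.92 and 29.15 to 22.94, 23.02 and 23.88 FPKM (log2 change -0.33 with SE 0.04, adjusted p = 3.98e-05 by limma). KIF1C, a motor of dense vesicles and messenger RNAs, fell by 0.20 on the log2 scale (adjusted p = 0.00511 by limma).

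Among the kinesin-4 group beside KIF4A, KIF7 and its paralog KIF27 rose from low levels. KIF7, which organises the tip of the primary cilium and regulates GLI factors, was at 1.94, 2.05 and 1.87 FPKM in DMSO and at 3.19, 3.57 and 3.03 FPKM in cinobufagin libraries (log2 change 0.53 with SE 0.08, adjusted p = 9.6e-05 by limma). KIF27 was at 1.61, 1.73 and 1.62 FPKM and at 2.01, 2.92 and 2.65 FPKM (log2 change 0.40 with SE 0.10, adjusted p = 0.00373 by limma). KIF21A was at 5.74 ± 0.559 and 5.80 ± 0.410 FPKM and missed the threshold (SD, n = 3 each; adjusted p = 0.886 by limma). KIF21B, a motor that limits microtubule growth, fell by 0.33 on the log2 scale, and missed the threshold without cinobufagin replicate 1 (log2 fold change -0.24, adjusted p = 0.0536 by limma; alternatives ran from 0.00342 to 0.0536).

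Not all falls were of genes listed as mitotic. KIFC3 (gene ID 3801, chromosome 16, 57758217 to 57863053), a minus-end motor of cell junctions and the Golgi apparatus, was at 20.54, 18.20 and 19.77 FPKM in DMSO and at 7.96, 8.77 and 8.71 FPKM in cinobufagin libraries. Its log2 change of -1.11 (SE 0.06; adjusted p = 3.29e-08 by limma) lies within the range of the mitotic genes, and no other tested member outside that group fell by at least 1 on this scale. With a pseudocount of 0.1 KIF24 passed that size too, at -1.39 beside -1.19 for KIFC3. Its relative KIFC2 was at 8.51 ± 0.510 and 9.60 ± 1.39 FPKM (SD, n = 3 each) without passing the threshold (adjusted p = 0.162 by limma), though it passed as higher without cinobufagin replicate 1 (log2 fold change 0.26, adjusted p = 0.00809 by limma; alternatives ran from 0.00809 to 0.448). The ratio of KIFC3 to KIFC2 was 2.17 to 2.49 in DMSO and 0.835 to 0.995 in cinobufagin libraries (exact permutation p = 0.10, two-sided, the smallest possible).

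KIF24, which takes microtubules apart at the mother centriole and holds back cilium formation, was at 1.77, 1.83 and 2.03 FPKM in DMSO and at 0.60, 0.68 and 0.69 FPKM in cinobufagin libraries (log2 change -0.80 with SE 0.08, adjusted p = 5.52e-06 by limma). Like KIF14, it passed the filter only through the DMSO libraries, so that it had to differ. KIF2A, a depolymerase of spindle poles and neurons, fell by 0.33 on the log2 scale, from 12.8 ± 0.866 to 9.93 ± 0.432 FPKM (SD, n = 3 each). The kinesin-9 genes, a group linked to motile cilia and flagella, both fell, where 28.4% of all genes tested fell. KIF6 was at 5.87, 5.97 and 6.33 FPKM in DMSO and 3.21, 3.14 and 3.20 FPKM in cinobufagin libraries (log2 change -0.75 with SE 0.07, adjusted p = 1.26e-06 by limma), and KIF9 was at 5.71 ± 0.904 and 3.30 ± 0.526 FPKM (log2 fold change -0.64).

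**Figure D3:**
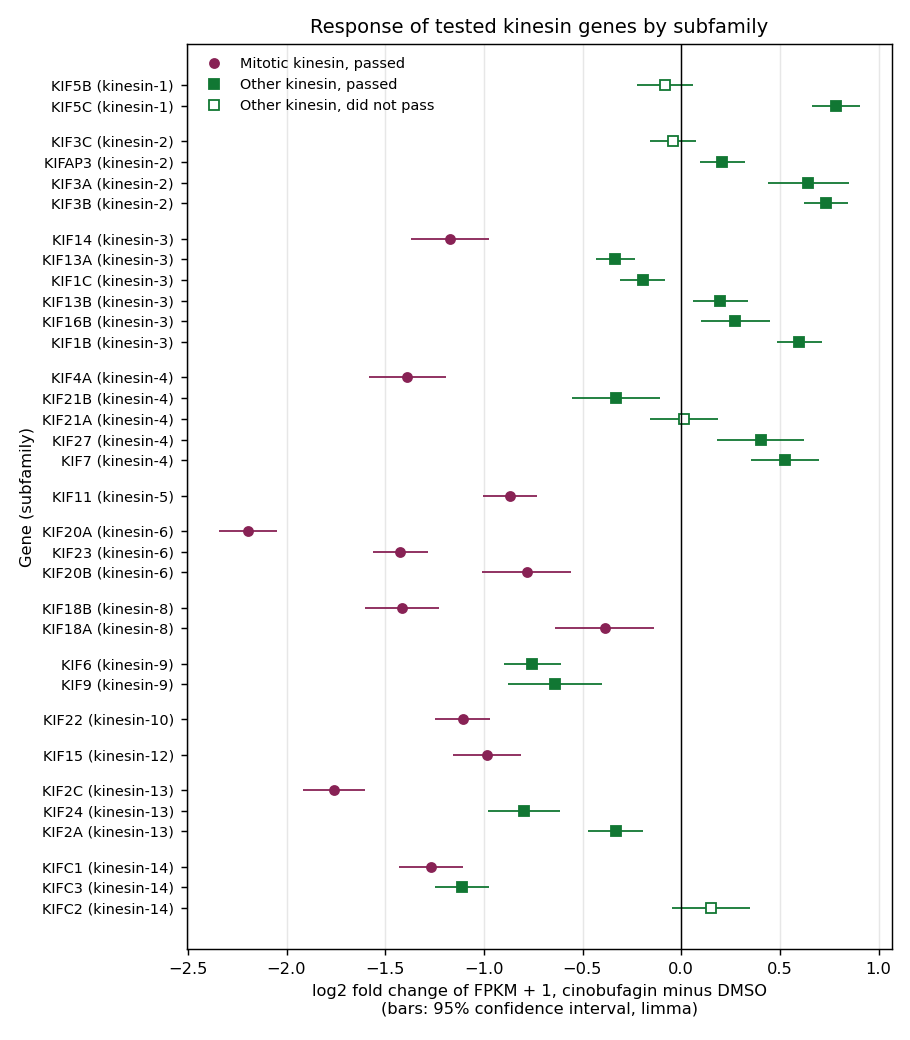
Log2 fold change of FPKM + 1 (cinobufagin minus DMSO) of the 33 tested kinesin genes, grouped by subfamily, with 95% confidence intervals from limma. Circles are mitotic and squares other kinesins, and open symbols did not pass. Kinesin-2 genes lie at -0.04 to 0.73 and kinesin-6 genes at -2.20 to -0.78.

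The order of levels differed between the groups. In DMSO KIF1C and KIF5B led at 49.6 and 49.3 FPKM and overlapped, followed by KIF13A at 29.6 and KIFAP3 at 23.9 FPKM. Then came KIFC3, KIF3B, KIF22, KIFC1, KIF20A and KIF23 at 17.8 to 19.5 FPKM, whose library values overlapped between neighbours. In cinobufagin libraries KIF5B at 46.3 FPKM stood above KIF1C at 43.1 FPKM without overlap, KIF3B came next at 32.6 FPKM, and the most abundant mitotic member was KIF18A at 8.54 FPKM, 12th in the family. The filter left out 9 genes: KIF1A, KIF12 and KIF25 were listed at 0 in every library, and KIF5A, KIF17, KIF19, KIF4B, KIF26A and KIF26B at 0.40 FPKM or less. The lowest DMSO means among tested genes were those of KIF21B, KIF27 and KIF24, at 1.46, 1.65 and 1.88 FPKM, and the highest among untested genes were those of KIF17 and KIF5A, at 0.323 and 0.263 FPKM.

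**Figure D4:**
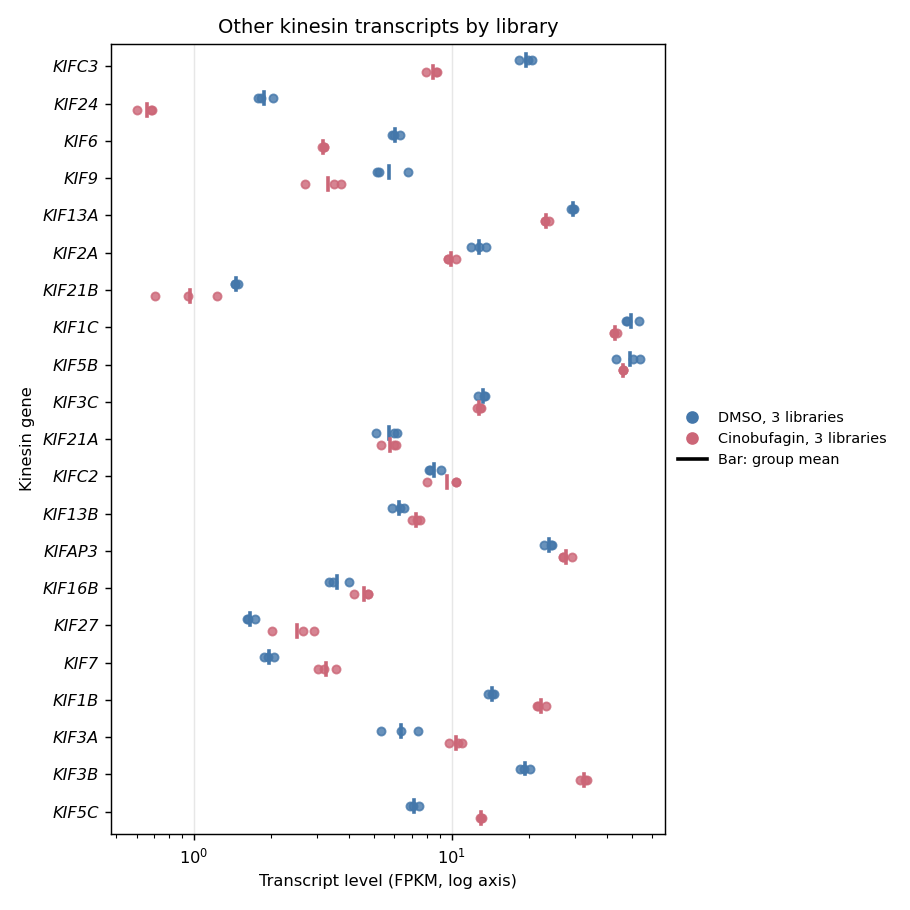
Transcript level (FPKM, log axis) of the 21 tested kinesin genes outside the mitotic group in each library, ordered by log2 fold change, with points for libraries and bars for group means. KIFC3 at 19.5 and 8.48 FPKM and KIF5C at 7.13 and 13.01 FPKM mark the ends, and KIF5B, KIF3C, KIF21A and KIFC2 overlap between the groups.

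Genes that work with the mitotic kinesins on the spindle fell with them. Of 31 spindle partner genes, all tested, 28 fell, 2 rose and 1 did not pass, where 28.4% of all genes tested fell and 39.2% rose, with a median log2 fold change of -1.31 beside 0.06 over all genes tested. The mitotic kinase PLK1 went from 17.6 ± 0.356 to 3.65 ± 0.478 FPKM (SD, n = 3 per group; log2 change -2.003, adjusted p = 1.7e-09 by limma). PRC1, which bundles midzone microtubules and is a cargo of KIF4A, fell by 1.85 (log2), as did the spindle assembly factor HMMR, and the pole kinase AURKA fell by 1.74. TPX2, a partner of KIF11 and KIF15, fell by 1.67, and RACGAP1, the partner of KIF23 in centralspindlin, fell by 1.05. The microtubule end-binding genes MAPRE2 and MAPRE3 rose by 0.21 and 0.29, while MAPRE1 fell by 0.16 on the log2 scale. NUMA1, which anchors dynein at the poles, was at 51.4 and 48.9 FPKM without passing the threshold (adjusted p = 0.15 by limma).

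Transcription factors, pocket proteins and other regulators of cell cycle genes formed a further list. Of 20 tested genes 13 fell, 2 rose and 5 missed the threshold, where 28.4% of all genes tested fell and 39.2% rose, and the median log2 change was -0.45, beside 0.06 over all genes. E2F2 is among the 13 but passed the filter only through its DMSO libraries, so that it had to differ. MYBL2 and FOXM1, the activators that work with MuvB, fell from 21.7 ± 0.515 to 6.54 ± 0.476 FPKM and from 20.98 ± 0.382 to 6.71 ± 0.698 FPKM (SD, n = 3 each; adjusted p by limma 1.64e-09 for MYBL2 and 5.39e-09 for FOXM1). Among E2F factors, E2F1 fell by 1.20 and E2F7 fell by 0.98 (log2). RBL2, the p130 pocket protein of the repressing DREAM complex, rose by 0.27, and the dimer partner TFDP2 rose by 0.25. The pocket protein gene RBL1 fell by 0.58 and the dimer partner TFDP1 by 0.44 (log2), and E2F4 did not pass (adjusted p = 0.158 by limma). CDKN1A, the CDK inhibitor p21, fell from 167 ± 2.61 to 122 ± 2.17 FPKM (log2 fold change -0.46, adjusted p = 6.96e-07 by limma).

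Cargo adaptors and light chains went both ways. Of 24 genes 22 were tested, and 11 rose, 5 fell and 6 missed the threshold, where 39.2% of all genes tested rose and 28.4% fell. The median log2 change was 0.20, beside 0.06 over all genes. After median centring or quantile normalization 11 rose and 8 fell. The kinesin light chains KLC1, KLC2 and KLC4 rose by 0.29, 0.42 and 0.38 on the log2 scale. KLC3 fell by 0.995, from 2.60 ± 0.442 to 0.80 ± 0.128 FPKM (SD, n = 3 each). Only its DMSO libraries passed the filter, so that KLC3 had to differ. The scaffold genes KIDINS220 and MAPK8IP3 rose by 0.63 and 0.57. Of the mitochondrial adaptors, TRAK2 fell from 61.5 ± 3.02 to 38.6 ± 0.728 FPKM (log2 fold change -0.66, adjusted p = 2.11e-07 by limma) and RHOT1 fell by 0.30 (log2). RAB6A, a GTPase gene of Golgi vesicles, fell by 0.15 (log2).

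Dynein, a minus-end motor like KIFC1 and KIFC3, and its cofactor dynactin had a median close to that of all genes. Of 34 genes 33 were tested, and 15 rose, 4 fell and 14 missed the threshold, where 39.2% of all genes tested rose and 28.4% fell. The median log2 change was 0.11, beside 0.06 over all genes. The light chain gene DYNLL2 rose from 16.03 ± 0.928 to 36.3 ± 2.46 FPKM (SD, n = 3 per group; log2 change 1.13, adjusted p = 2.38e-08 by limma), and its near relative DYNLL1 was at 285 and 291 FPKM without passing the threshold (adjusted p = 0.469 by limma). The light intermediate chain DYNC1LI1 and the adaptor BICD1 rose by 0.52 and 0.50. SPDL1, which brings dynein to kinetochores, fell by 0.81, the ciliary heavy chain DYNC2H1 fell by 0.37, and of the capping subunits CAPZB fell by 0.26 and CAPZA1 fell by 0.13 (log2). The main heavy chain DYNC1H1 was at 35.6 and 35.1 FPKM without passing the threshold (adjusted p = 0.695 by limma).

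**Figure D5:**
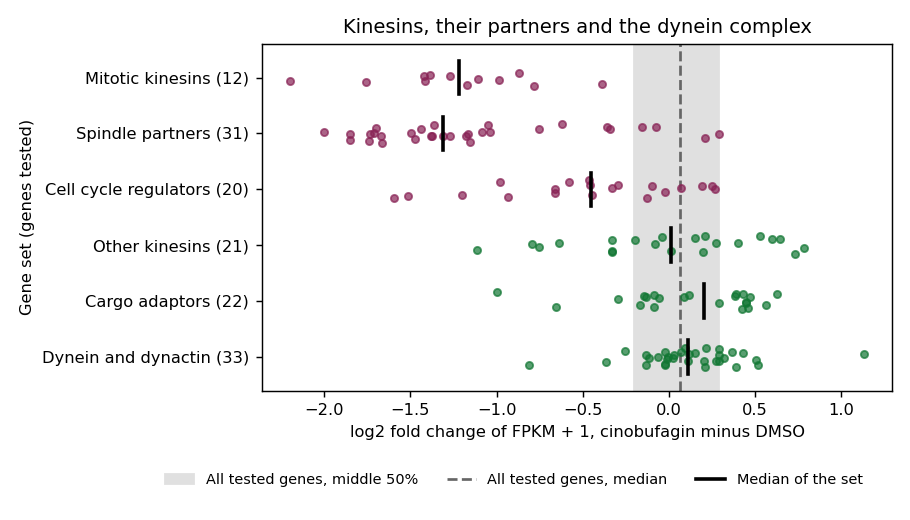
Log2 fold change of FPKM + 1 (cinobufagin minus DMSO) of each tested gene in 6 sets, with a bar at the median of the set, the median over all 11599 genes tested as a dashed line and their middle 50% in grey. Set medians run from -1.31 (spindle partners) and -1.22 (mitotic kinesins) to 0.11 (dynein and dynactin) and 0.20 (cargo adaptors).

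Several kinesin genes overlap another listed gene in GENCODE 29, and no source used here states the strand setting of the counting, so reads there are uncertain. KIF20A overlaps BRD8 and CDC23, KIF18A overlaps METTL15, KIF4A overlaps PDZD11, KIF24 overlaps UBAP1, KIF7 overlaps TICRR, KIF9 overlaps KLHL18 and KIFC2 overlaps FOXH1, each on the opposite strand. KIF15 overlaps TMEM42 and KIF2A overlaps IPO11 on the same strand, and KIF2A also overlaps DIMT1 on the other.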

How the data were processed

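RNA sequencing of 3 DMSO and 3 cinobufagin libraries was read as FPKM per gene from the deposited table, per the file headers, given to 2 decimals. Bowtie2, RSEM 1.3.1, DESeq2 1.4.5 and the build GRCh38.p13 are listed in the submitters' processing notes, without a role for each. Because FPKM holds no read numbers, no counting error was computed. Columns headed mock were matched to DMSO libraries by number, DMSO being the only control in the labels. A gene ID was missing in 19 entries, which were left out, and 17881 of 17945 genes had a RefSeq symbol (GRCh38.p14, names only). Positions came from GENCODE 29 on GRCh38 and promoter windows from RefSeq.

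Genes at 1 FPKM or more in at least 3 libraries were fitted as log2 of FPKM with a pseudocount of 1 by limma 3.58.1 (trend option on, R 4.3.3), without a block, and adjusted by Benjamini-Hochberg over all 11599 genes, calling adjusted p under 0.05. SE values are moderated. Fold changes are on the log2(FPKM + 1) scale, which understates those of low genes. Ratios of 2 genes were tested by exact permutation over libraries. The pairs were chosen with results of these data known. Some hold the genes with the largest or smallest changes, so their p-values are a description, and the adjustment does not cover that choice. The fit was tested on simulated data. Any member could be named, and of each partner list up to 4 genes that passed and changed most, those that moved against the majority, and others where a role is described, the last chosen after their values were seen. A partner gene that the rule names is not reported here. The members, lists and rules were chosen with earlier results of these data known. The alternatives were other pseudocounts, filters and scalings, no trend, the replicate number as a block and leaving out each library. Python 3.11.15 with matplotlib 3.10.9 drew the figures.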

Additional observations from a re-analysis of the deposited data

How the results depend on the processing

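Across 13 alternatives every mitotic kinesin that was tested kept a negative log2 fold change, though KIF18A missed the threshold without a filter, which left 11 that fell, and the counts of kinesins that rose and fell stayed within 1.5 times the main counts. With a pseudocount of 0.1 the median log2 fold change of the mitotic kinesins was -1.46 and its difference from the other kinesins was -1.48, beside -1.22 and -1.23, since the smaller pseudocount widens the changes of low genes. With a filter of at least 5 FPKM, which leaves 10 mitotic genes, their median was -1.33. Leaving out each library in turn gave a median of -1.27 to -1.19 for the mitotic kinesins, of -0.026 to 0.064 for the others (0.014 with all) and of -1.34 to -1.17 for the difference. The count of cargo adaptors that fell was 8 after quantile normalization and 8 after median centring, in place of 5. Among the 33 tested kinesins 5 changed side of the threshold, named in the text: 4 results were lost and 2 gained, and the cause was not tested. Without a filter KIF17 and KIF26A, untested otherwise, also passed as lower (log2 fold change -0.36 and -0.16, limma adjusted p = 0.000502 and 0.0117).

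The replicate number as a block left the counts at 9 kinesins that rose and 20 that fell and changed no kinesin call. Same-numbered libraries did not deviate together (correlations of -0.049, -0.105 and -0.009 over the genes tested). The labels state no pairing, and with 3 libraries per group these values cannot settle if the samples were paired.

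FPKM holds no read numbers, so the depth behind genes below the filter, such as KIF17, is unknown.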
